A study of Drosophila melanogaster with 3 samples.

Results

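The vacuolar ATPase (V-ATPase) genes of Drosophila melanogaster described here are the protein-coding genes of the Ensembl annotation of dm6 whose symbol starts with Vha followed by a digit, A, M or P. There are 32 of them among 13945 protein-coding genes on the 6 chromosome arms. They encode the soluble V1 sector (12 genes), the membrane V0 sector (18 genes) and an accessory subunit (2 genes). VhaSFD, which encodes the H subunit, falls outside the naming rule. Most subunits are encoded by several paralogues. From background knowledge, and not from these data, 13 genes were classed as the widely expressed copy of their subunit and the other 19 as other copies, several of which are known mainly from testis, gut or nervous system.

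The V-ATPase is a rotary proton pump. The V1 sector hydrolyses ATP and turns a central axle, and the axle turns a ring of proteolipids in the membrane that carries protons past the a subunit of V0. The pump acidifies endosomes, lysosomes and secretory vesicles in all cells, and specialised epithelia such as the Malpighian tubule and the copper cell region of the midgut carry it at high density in the plasma membrane. Nf-YB forms part of NF-Y, which binds DNA as a trimer with Nf-YA and Nf-YC and reads the CCAAT box.

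Binding of Nf-YB was measured by chromatin immunoprecipitation with sequencing in whole embryos aged 0 to 24 h, males and females pooled, of a transgenic line that stably expresses Nf-YB fused at its C-terminus to green fluorescent protein. The antibody was directed against the tag, and chromatin was sheared by sonication to fragments of 200 to 800 bp. The 3 biological replicates form 1 group, so no condition was compared and no test between groups exists. Because whole embryos were used, a site occupied in few cells cannot be told apart from weak occupancy in many. The authors deposited a list of 30000 peaks for each replicate, a pooled list of 30000 peaks and an optimal list of 6221 reproducible peaks, equal to the top of the pooled list by signal. Read depth is unknown from these files. A gene was counted as bound where the summit of an optimal peak lay within 500 bp of one of its annotated transcription start sites (TSSs). Offsets are given in bp from the nearest TSS of the gene, negative upstream, and rank 1 is the highest signal in a list.

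The DNA under 4 promoter summits is given first. The catalytic subunit gene Vha68-2, the nucleotide-binding subunit gene Vha55 and the proton-path gene Vha100-2 were bound, and the neuronal a-subunit paralogue Vha100-1 was not. For Vha100-2 the weaker of its 2 optimal promoter summits is shown. Each sequence is read 5′ to 3′ on the strand of the gene from the RefSeq copy of dm6 and covers at most 50 bp on each side of the summit, stopping before any exon. Capitals mark a CCAAT box or a GAGAG motif on either strand.
Vha68-2, chr2L:12974149-12974249, plus strand, −173 to −73 from the TSS, summit at −123: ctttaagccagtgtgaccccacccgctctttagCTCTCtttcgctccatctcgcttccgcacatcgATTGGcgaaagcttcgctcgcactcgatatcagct
Vha55, chr3R:12627830-12627917, minus strand, −88 to −1 from the TSS, summit at −38: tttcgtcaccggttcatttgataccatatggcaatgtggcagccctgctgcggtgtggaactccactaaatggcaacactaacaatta
Vha100-2, chr3R:18399292-18399392, minus strand, −223 to −123 from the upstream TSS, summit at −173: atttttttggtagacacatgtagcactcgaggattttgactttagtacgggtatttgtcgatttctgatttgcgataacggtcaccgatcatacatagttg
Vha100-1, chr3R:29131082-29131182, plus strand, −111 to −11 from the TSS, summit at −61: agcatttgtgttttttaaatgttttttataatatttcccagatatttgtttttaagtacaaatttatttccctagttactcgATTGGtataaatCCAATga
The bound promoter of Vha68-2 holds a CCAAT box in reverse orientation 18 bp from the summit. The windows printed for Vha55 and Vha100-2 hold neither motif. The strongest summit of Vha100-2, at rank 1108, is not printed and has GAGAG within 50 bp. The window of Vha100-1, whose summit ranked below the end of the optimal list, holds 2 CCAAT boxes, 34 and 46 bp from its summit.

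In the optimal list, 5 of the 32 V-ATPase genes were bound (15.6%), beside 3017 of 13945 protein-coding genes (21.6%). The 5 were Vha68-2, Vha55 and Vha44 of V1 and Vha100-2 and Vha16-1 of V0. All 5 are copies classed, from background knowledge, as widely expressed. Of the 13 widely expressed copies, 5 were bound (38.5%), and of the 19 other copies none was, so the members' share lay below the background for the set and above it for the widely expressed copies. These are counts over small numbers of genes and carry no test. Vha55, Vha44, Vha26 and Vha13 are each the only gene of their subunit, so for them the classes compare no paralogues.

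Among the V1 genes, the catalytic A subunit is encoded by Vha68-1, Vha68-2 and Vha68-3. Vha68-2 (FBgn0263598, chr2L:12974322-12978607, plus strand) had an intergenic summit 123 bp upstream of its TSS that ranked 4198 in the optimal list, with a signal 0.779 times the list median. Its strongest promoter summit ranked 3272, 8058 and 4657 in replicates 1, 2 and 3, at offsets of −75, 20 and −131. Replicate 2 thus placed its strongest summit downstream of the TSS, and no replicate 2 summit lay within 100 bp of the optimal one. Vha68-1 lies on the same arm and had no promoter summit in the pooled list, yet it ranked 8188, 16825 and 3717 in the replicates at offsets of −112, −354 and −162. The 3 replicates therefore put a summit near the Vha68-1 TSS at positions spread over 242 bp, and only that of replicate 3 was among its 6221 highest peaks. The TSS of mTor lies on the opposite strand, 373 bp from that of Vha68-1. Which gene each of these summits belongs to cannot be told by position. Vha68-3 starts 178 bp beyond the end of Vha68-2 on the same strand and is known mainly from testis. Its pooled summit lay in its coding exon at 249, ranked 24247, and was listed in replicates 1 and 3 at ranks 19583 and 22472 and in replicate 2 not at all.

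The nucleotide-binding B subunit has 1 gene, Vha55 (FBgn0005671, chr3R:12623762-12627829, minus strand). Its intergenic summit ranked 3215 in the optimal list, with a signal 0.970 times the list median, 38 bp upstream of the TSS. In the replicates it ranked 1830, 3549 and 9622. The ranks spread widely and replicate 3 fell outside the length of the optimal list, but the positions of −23, −28 and −34 lay within 11 bp of each other. The summit also lies 164 bp upstream of Snx3, a sorting nexin gene that starts on the opposite strand 202 bp away.

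The C subunit, which connects V1 with V0, also has 1 gene, Vha44 (FBgn0287825, 2R, 16324813 to 16336637, minus strand). Its summit ranked 6214, which is 7 ranks before the end of the optimal list, with a signal 0.568 times the list median. The replicates ranked it 6769, 3617 and 6491, so only replicate 2 had it among its 6221 highest peaks. The summit lay 43 bp upstream of Vha44 and 80 bp upstream of the nearest TSS of Hmgs, in a 5′ UTR of that gene. Hmgs encodes hydroxymethylglutaryl-CoA synthase, and its TSS on the opposite strand is 123 bp from that of Vha44. Vha44 is thus inside the count of bound members by a small margin of rank.

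The central axle is formed by subunits D and F. None of their 5 genes was bound. Vha36-1 (D) had a pooled summit at rank 6750, with replicate ranks of 8384, 5451 and 8580. Its replicate offsets were −30, −31 and −30, with a mean of −30.3 ± 0.577 (SD, n = 3), the tightest of the 16 members that had a summit in all 3 replicates. The summit lies 41 bp upstream of CG8187, whose TSS on the opposite strand is 72 bp away. Vha36-3 had a pooled summit in its 5′ UTR at 70, rank 8991, with ranks of 5683 and 12752 in replicates 1 and 3 and none in replicate 2. Vha36-2, known mainly from testis, had no promoter summit in any list, and its nearest optimal summit was 56382 bp away. Of the F subunit genes, Vha14-1 was listed in replicate 1 alone, at rank 29173, and Vha14-2, another testis copy, in no list.

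Subunits E and G form the peripheral stalks that hold the catalytic head still. Vha26 (E) had no promoter summit in the pooled list and was listed in replicate 2 alone, at rank 9323 and 122 bp upstream. Vha13 (G) had a pooled summit at rank 7965, 40 bp upstream, and ranked 7976, 6957 and 9022 in the replicates at offsets of −40, −190 and −138. All 3 Vha13 ranks thus lay past 6221 and close to each other, while the positions differed by 150 bp.

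Among the V0 genes, the a subunit, which forms the path of the protons, has 5 genes. Vha100-2 (FBgn0028670, chr3R:18390323-18399169, minus strand) carried the strongest summit of all members: it ranked 1108 in the optimal list, with a signal 2.42 times the list median, and 992, 1633 and 1202 in the replicates. It was the only member among the 6221 highest peaks of all 3 replicates. The summit lay 283 bp upstream of the downstream TSS of Vha100-2, in the 5′ UTR of Vti1b, and nearer to the TSS of Vti1b, a SNARE gene on the opposite strand, at 216 bp downstream. Which of the neighbours the signal belongs to cannot be told apart by position. A second summit of Vha100-2, the one printed above, ranked 3982 with a signal 0.811 times the list median and lay 173 bp upstream of the upstream TSS, within an intron of Vti1b. It ranked 3012, 4301 and 5409 in the replicates, so both summits of Vha100-2 were found in all 3.

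The 4 paralogues of Vha100-2 were unbound. Vha100-1, the copy known for its role in synaptic vesicles of neurons, had a pooled summit at rank 7550, 61 bp upstream and 160 bp upstream of dgt6, and ranked 8623, 11563 and 7154 in the replicates at offsets of −20, −60 and −51. Vha100-4, the copper cell copy whose gene starts 517 bp downstream of the end of Vha100-2, had a pooled summit only at rank 28918 and was listed in replicate 1 alone, at rank 15601. Vha100-5 ranked 12068 and was listed in replicate 3 alone, at rank 14929; its nearest optimal summit was 65653 bp away, the farthest of all members. Vha100-3, a testis copy, was in no list. The ranks of the 5 paralogues therefore ran from 1108 to beyond the end of the list.

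The c and c″ subunits are the proteolipids of the membrane ring. Vha16-1 (FBgn0262736, 2R, 6625242 to 6633090, minus strand), the widely expressed c gene, was bound by a summit in its own intron, 71 bp upstream of its internal TSS, at rank 5873 and 0.593 times the list median. It ranked 5731, 3174 and 7260 in the replicates, at −110, −190 and −178. Only replicate 1 placed a summit within 100 bp of the optimal one; replicates 2 and 3 matched instead a pooled summit of lower rank, 6870, at −274. Of the other c genes, Vha16-2 and Vha16-3 lie 985 bp apart and ranked 21922 and 23063 in the pooled list. Vha16-5 ranked 6695 and 12242 in replicates 1 and 2 and was not in the pooled list at its promoter. The TSS of CG12299 lies on the opposite strand, 302 bp from that of Vha16-5. Vha16-4 was in no list. VhaPPA1-1, the widely expressed c″ gene, had a pooled summit at rank 7192, 71 bp upstream, with replicate ranks of 5661, 19210 and 7293, while VhaPPA1-2, a testis copy 2052 bp away, had none.

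The d subunit joins the axle to the ring. VhaAC39-1, the widely expressed copy, ranked 15675 in the pooled list and 15909, 18025 and 17335 in the replicates. VhaAC39-2, known mainly from testis, ranked 14155 and then 19221, 14513 and 12640. The order of these paralogues thus differed between replicates, and neither came near the optimal list. The small e subunit has 4 genes. The widely expressed copy VhaM9.7-b had no promoter summit in any list, and its nearest optimal summit was 22794 bp away. VhaM9.7-a ranked 6406 in the pooled list and 4873, 7402 and 7603 in the replicates, 171 bp upstream and nearer to CG11586, at 64 bp upstream. VhaM9.7-d ranked 7221 and then 6832, 3901 and 25160, at −353 in the pooled list. VhaM9.7-c ranked 16924 and was listed in replicates 1 and 3. For subunit e, the copy without a summit was therefore the widely expressed one.

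The accessory subunit Ac45, a regulator of the pump in the secretory pathway, has the genes VhaAC45 and VhaAC45RP, both unbound. VhaAC45 had a pooled summit at rank 6990, 61 bp upstream, and ranked 7108, 21406 and 5759 in the replicates. VhaAC45RP had one at rank 12072, 10 bp upstream, and ranked 12032, 7859 and 21553.

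**Figure D1:**
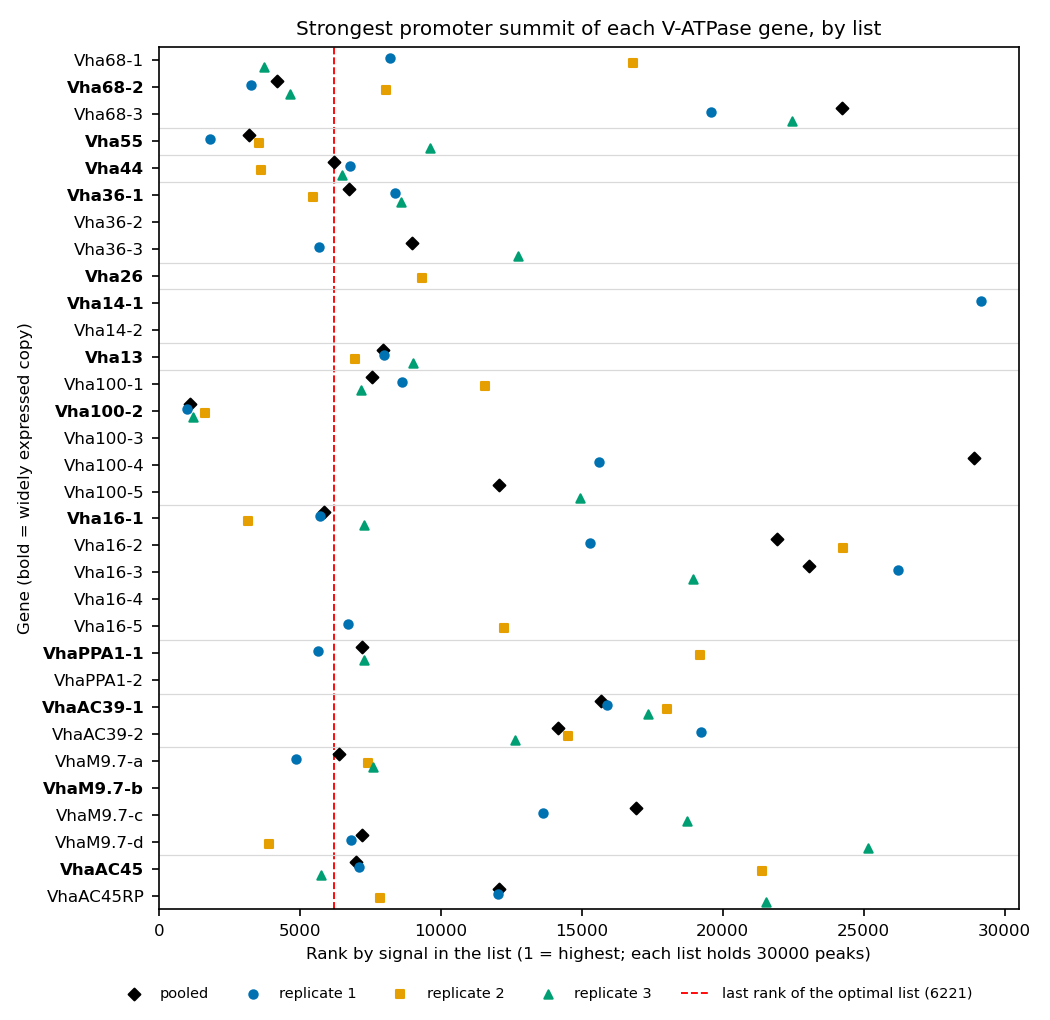
Rank by signal of the strongest promoter summit of each of the 32 V-ATPase genes in the pooled list and in each replicate, grouped by subunit; the dashed line marks rank 6221, where the optimal list ends, and a gene with no symbol had no promoter summit. The symbols of Vha100-2 lie together near the top of the lists, between 992 and 1633, while most other members straddle or lie beyond the line and spread between replicates.

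Of the 27 unbound members, 10 lay in the stretch of ranks that follows the optimal list. In this next block of the pooled list, ranks 6222 to 12442, 10 members had their strongest promoter summit (31.2%), beside 1918 protein-coding genes (13.8%). They were VhaM9.7-a at 6406, Vha36-1, VhaAC45, VhaPPA1-1, VhaM9.7-d, Vha100-1, Vha13, Vha36-3, Vha100-5 and VhaAC45RP at 12072. The block was chosen after these values were seen, so its share is a description of where the members fall. In it the classes were alike in share, with 4 of 13 widely expressed copies (30.8%) and 6 of 19 other copies (31.6%). A further 7 members (21.9%, beside 12.7%) had their strongest pooled summit after rank 12442, and 10 (31.2%, beside 51.9%) had no promoter summit in the pooled list. At the threshold itself, Vha44 at 6214 was the last member inside, and VhaM9.7-a at 6406, 185 ranks past the end, the first outside.

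**Figure D2:**
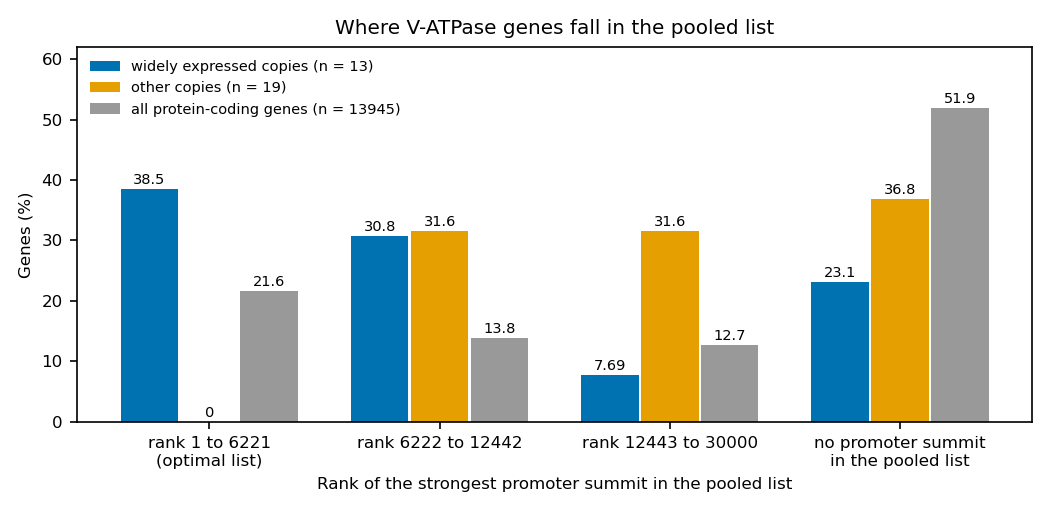
Percentage of the 13 widely expressed copies, the 19 other copies and all 13945 protein-coding genes whose strongest promoter summit falls in each part of the pooled list. The widely expressed copies stand at 38.5% within the optimal list and 30.8% in the next block, and the other copies at 0 and 31.6%.

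Over the whole pooled list, 22 of 32 members had a promoter summit (68.8%), beside 48.1% of protein-coding genes. The classes were closer here than in the optimal list: 10 of 13 widely expressed copies (76.9%) and 12 of 19 other copies (63.2%) had one. The whole replicate lists held a promoter summit for 24 members (75.0%, beside 49.4% of protein-coding genes) in replicate 1, 19 (59.4%, beside 46.8%) in replicate 2 and 21 (65.6%, beside 47.3%) in replicate 3. The members' share was above the background in each whole list and below it in the optimal list.

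Each replicate list was also limited to its 6221 peaks of highest signal. Replicate 1 then bound 7 members (21.9%, beside 21.1% of protein-coding genes), replicate 2 bound 6 (18.8%, beside 19.0%) and replicate 3 bound 4 (12.5%, beside 22.6%). The mean was 5.67 ± 1.53 members (SD, n = 3). The members' shares in replicates 1 and 2 were near the background and that in replicate 3 was below it. Of the widely expressed copies, 5, 5 and 3 were bound (4.33 ± 1.15), and of the other copies 2, 1 and 1 (1.33 ± 0.577), so the widely expressed copies had the higher share in each replicate. The other copies bound were Vha36-3 and VhaM9.7-a in replicate 1, VhaM9.7-d in replicate 2 and Vha68-1 in replicate 3, and none of these in more than 1 replicate.

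**Figure D3:**
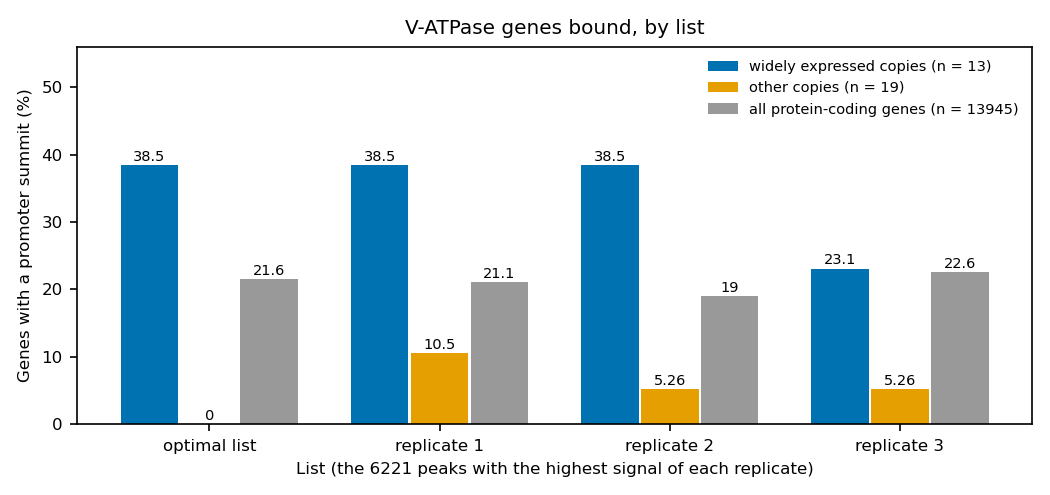
Percentage of widely expressed copies, other copies and all protein-coding genes with a promoter summit in the optimal list and among the 6221 highest peaks of each replicate. The widely expressed copies stand at 38.5% except in replicate 3, where they are at 23.1%, close to the 22.6% of all protein-coding genes.

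Few members were bound in every replicate. Among the 6221 highest peaks, 1 member, Vha100-2, was bound in all 3 replicates (3.12%, beside 13.8% of protein-coding genes). Vha55, Vha68-2 and Vha16-1 were bound in 2 replicates (9.38%, beside 6.10%), 8 members in 1 (25%, beside 9.16%) and 20 in none (62.5%, beside 70.9%). Of the 6 optimal promoter summits of members, 2 were found within 100 bp among the highest peaks of all 3 replicates (33.3%), and both belong to Vha100-2. Of all 2604 optimal promoter summits, 54.8% were, with 87.4% of those in the first 3110 ranks and 20.3% of those in the later ranks. The members have 1 summit in the first 3110 ranks and 5 in the later ranks, of which 1 was found in all 3. Replicate 3 stood somewhat apart, by shares counted in 1 direction only. Of the highest peaks of replicate 1, 70.7% were found in replicate 2 and 64.4% in replicate 3. Of those of replicate 2, 62.4% were found in replicate 3. Without replicate 3 the mean was 6.50 members, and without replicate 1 it was 5.0.

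Summits of bound members lay upstream of a TSS of their gene. All 6 optimal promoter summits were upstream of the nearest TSS of their own gene, between −283 and −38 with a median of −97. The strongest summit of Vha100-2 and that of Vha16-1 lay inside the gene, upstream of an internal TSS only. Over all 2604, taken from the nearest protein-coding TSS, the median was −108 and 78.7% were upstream. The measures differ: by the nearest TSS, the Vha100-2 summit at −283 lies 216 bp downstream of Vti1b. The members' median rests on few summits and was −71 with a window of 250 bp and −57 with one of 1000 bp. Of the 22 strongest pooled summits, 18 were upstream, 13 of them within 200 bp, with a median of −61. The 4 downstream ones belong to Vha36-3 (70), Vha16-3 (52), Vha68-3 (249) and VhaAC39-1 (92). The same shares were not computed over all genes in the pooled list. Of the 2604 optimal promoter summits, 53.4% lay within 200 bp upstream of the nearest protein-coding TSS. The peaks of 32 of the 33 pooled promoter summits of members are 444 bp wide, the width of 89.8% of the pooled list, so their width carries little information. The exception is the strongest peak of Vha100-2, at 262 bp.

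**Figure D4:**
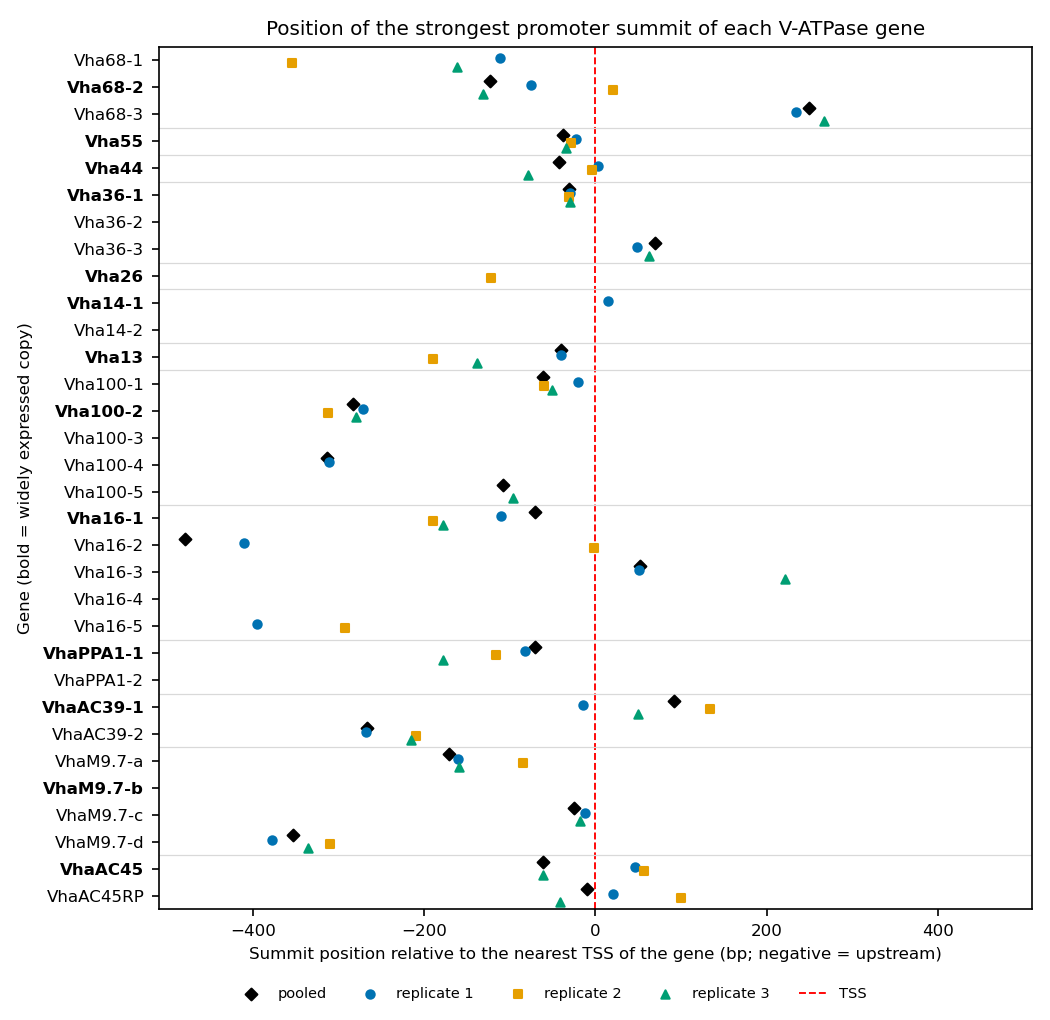
Position of the strongest promoter summit of each V-ATPase gene relative to its nearest TSS, in bp, in the pooled list and in each replicate. The symbols of Vha36-1 coincide at −30 to −31, and those of Vha68-1 spread over 242 bp. The TSS of mTor, on the opposite strand, is 373 bp from that of Vha68-1.

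Binding was also set beside the layout of the promoters. Of the members, 13 (40.6%, beside 27.8% of protein-coding genes) have the TSS of another protein-coding gene on the opposite strand within 500 bp, and 3 of these 13, Vha100-2, Vha55 and Vha44, were bound (23.1%), beside 37.0% of all genes of that kind. Of the 19 members without one, Vha68-2 and Vha16-1 were bound (10.5%), beside 15.7%. All 5 bound members have 2 or more annotated TSSs. Of the 8 members with 2 or more TSSs, 5 were bound (62.5%), beside 36.7% of such genes, and of the 24 with 1 TSS none was, beside 16.2%. The classes also differ in this: 5 of 13 widely expressed copies have several TSSs and all 5 were bound, against 3 of 19 other copies, Vha100-1, Vha16-3 and Vha36-3, of which none was. Among copies with 1 TSS, 0 of 8 widely expressed and 0 of 16 other copies were bound. The part of TSS number in the difference between the classes was not tested. These splits were chosen after the values were seen.

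For the 27 unbound members, the nearest optimal summit lay at a median of 8456 bp from a TSS of the gene, and for 11 of them beyond 10000 bp. Within 2000 bp lay the nearest optimal summits of Vha14-1 (931 bp), Vha36-3 (1773 bp) and VhaPPA1-2 (1793 bp). Inside the bound genes, 2 further optimal summits lay outside the promoter window: 1 in Vha100-2, 3274 bp from a TSS at rank 5443, and 1 in Vha16-1, 788 bp from a TSS at rank 5333, above its promoter summit.

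The CCAAT box, the known NF-Y motif, lay within 50 bp of 1 of the 6 optimal promoter summits of members, that of Vha68-2, beside 634 of 2604 optimal promoter summits (24.3%). In the 250 bp upstream of the outermost TSS, read on both strands, CCAAT was present in 16 of 32 members (50%), in 6 of 13 widely expressed and 10 of 19 other copies, beside 41.7% of protein-coding genes. Among the strongest pooled summits of the 22 members that had one, 7 had a CCAAT box within 50 bp (31.8%), beside 1464 of 6703 protein-coding genes (21.8%). That of Vha36-1 lay 7 bp from the summit, in reverse orientation at −40 to −36.

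The other motifs searched were GAGAG, the core of the GAGA factor site; TATCGATA, the DNA replication-related element; the E-box CACGTG; and TCACGTGA, the longer palindrome recognised by Mitf, which contains CACGTG. Mitf is known in flies and mammals as an activator of V-ATPase genes. GAGAG was within 50 bp of 3 of the 6 optimal summits, those of Vha68-2, Vha16-1 and the stronger of Vha100-2, beside 17.7% of all, and upstream of 8 of 32 members (25%, beside 25.7%). TATCGATA was upstream of Vha55 alone (3.12%, beside 8.0%) and within 50 bp of no member's optimal summit. CACGTG was upstream of Vha44 and VhaAC45RP (6.25%, beside 2.86%). TCACGTGA was upstream of Vha44 alone, at −48 to −41, within 50 bp of its summit at −43, beside 22 of 13945 protein-coding genes (0.158%) and 2 of 2604 optimal promoter summits (0.0768%). The position of −43 is that of the optimal summit: the strongest Vha44 summits of replicates 1, 2 and 3 lay at 3, −4 and −79. A match is a description of the letters and not a site.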

How the data were processed

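Per the labels, the 3 samples are biological replicates of 1 group on dm6. Per the file headers and readme texts, the authors called peaks on each replicate and on the pooled replicates against a control, and derived the optimal list by the irreproducible discovery rate. The deposited lists give per peak an interval, a summit, a signal value and a −log10 q-value. The signal, the authors' own value, set the order of peaks inside each list, and the deposited −log10 q-value gave another order as an alternative. Which aligner, peak caller and reproducibility threshold the authors chose is not given in the sources used here. Control reads were not analysed here, and intervals that need read depth were not computed.

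Genes and TSSs came from Ensembl release 115 (18164 genes on 6 arms), and sequence from the RefSeq copy of dm6. Positions are 1-based. The analysis used Python 3.11.15, numpy 2.4.6, pandas 2.3.3 and matplotlib 3.10.9. Summits of replicates were matched within 100 bp, and replicate lists were limited to 6221 peaks unless called whole. The pairing of summits with genes was checked on simulated data, with 200 of 200 planted summits recovered. These were planted within 500 bp of annotated TSSs, so the check covers the pairing step alone. It does not bear on which of 2 neighbouring genes a summit belongs to. The members and lists were chosen with earlier results of these data known. Values are given for every bound member and every unbound member with a pooled summit, and the rest are named. The list of widely expressed copies also held VhaM8.9, which matches no symbol in the annotation; its present symbol, ATP6AP2, falls outside the rule. Alternatives tried were the promoter window, list length, ranking, TSS choice, match distance, motif distance, class of a copy and each replicate left out.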

Additional observations from a re-analysis of the deposited data

How the results depend on the processing

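Of 57 alternatives, 39 kept their value and 18 did not. A count or share of genes was kept within 1.5 times the reported one, and another value within less than 1 SD of the replicates. The median offset, the only signed value, stayed negative. Some of the 39 could not have moved, so the tally does not measure robustness. A narrower list or TSS choice cannot raise the 0 other copies bound, and adding or reclassing an unbound gene changes no bound count. The restriction to genes with 2 or more TSSs was chosen with all bound members known to have them. Within the first 3110 ranks of the optimal list, 1 member was bound, a widely expressed copy, beside 11.5% of protein-coding genes; in optimal peaks found in all 3 replicates it was again 1, a widely expressed copy, beside 12.3%. In both, the member was Vha100-2. The share of widely expressed copies, 1 of 13, was thus below the background in both. In the full optimal list it was above (38.5% beside 21.6%). In the whole pooled list the counts were 22 members, 10 widely expressed and 12 other copies, beside 48.1%, so the members' share turned from below the background (15.6% beside 21.6%) to above it (68.8%), and the other copies outnumbered the widely expressed ones, though by share they stayed lower (63.2% beside 76.9%). The replicate mean over whole lists was 21.3. Among genes with 1 TSS, an alternative chosen after seeing the data, 0 members were bound. CCAAT within 100 bp of a summit was found at 2 bound members, in a wider window for which no share over all summits was computed. By the deposited q-value the best member ranked 1, a rank shared by 5672 optimal peaks. Summits found in all replicates were 16.7% with a match within 50 bp, 66.7% in the whole lists, and 33.3% to 50% when each replicate was left out. With a window of 1000 bp, Vha14-1 was added (6 members, beside 24.8%), and with the outermost TSS alone Vha16-1 was lost (4 members, beside 19.1%). The cause of these shifts was not tested. No paired analysis was possible because the series has 1 group. Peak lists without read counts limit the precision, and 1 member more or less moves the share of 13 widely expressed copies noticeably.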

Other observations

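Related genes outside the naming rule were also unbound. VhaSFD, the H subunit gene, ranked 11821 in the pooled list and 9589 and 15198 in replicates 1 and 2, with no promoter summit in replicate 3. ATP6AP2, the gene of the prorenin receptor homologue associated with the pump, had no pooled promoter summit and ranked 4624 and 15856 in replicates 1 and 2. Its nearest optimal summit lay 13532 bp away and that of VhaSFD 6943 bp away.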
